A study of Homo sapiens with 9 samples.

Results

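The windows described here are 11825 stretches of 50 kb on the human autosomes, 591.2 Mb in all. In each, the same library position took at least 45% of the scaled nascent DNA reads in HCT116 and in both sets of RPE1. These windows were selected on measured values, as follows. Reads in bins of 1 kb were summed to 57633 windows of chromosomes 1 to 22, of which 53898 had at least 30 reads in each set and were used. The libraries were brought to a common total, and the share of the library in column 4 of a table, the first of its 3 count columns, was taken of the scaled reads of all 3. A window was kept as a member where that share was 0.45 or more in all 3 sets, which was so for 21.9% of the kept windows.

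HCT116 is a colorectal carcinoma line and RPE1 is a line of retinal pigment epithelium made immortal with telomerase. Both were grown in the same medium without synchronisation, no treatment is named, and a pulse of EdU, a thymidine analogue, marked newly made DNA. Cells were sorted into early, mid and late S, and the marked DNA was pulled down and sequenced. HCT116 is given by 1 set of 3 libraries and RPE1 by 2 sets of 3 libraries, described as a duplicate with no word on separate cultures. The HCT116 libraries of mid and late S carry the number 2 and that of early S none. The tables have no column names and the labels do not say which column holds early, mid or late S, so no column is given a fraction here and the members are called column-4 windows.

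The genome is copied in a set order during S phase. Large domains with many active genes and open chromatin are known to fire their origins early, and gene-poor domains bound to the nuclear lamina or rich in heterochromatin are copied late. Neighbouring origins fire at about the same time, so that timing changes along a chromosome in domains joined by transition zones, in which forks run from an earlier domain into a later one. Much of this order is shared by cell types, and part of it changes with cell identity.

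Library totals ran from 6170299 to 22930078 reads, and HCT116 was the shallowest set, with 27519669 reads against 35891538 and 55421713 in RPE1 sets 1 and 2. The median column-4 window held 478 reads in HCT116, 623 in RPE1 set 1 and 1136 in RPE1 set 2. The smallest library was column 5 of RPE1 set 1, and that set stood apart in column 6, which was nearly empty in the column-4 windows of that set alone. Without RPE1 set 1 the rule found 12080 windows, without RPE1 set 2 it found 12367, and on the RPE1 sets alone it found 14753. No p-value is given anywhere, because the shares chose the windows, HCT116 has a single set, and neighbouring windows are not replicates. Replicate error can be read from the distance between the RPE1 sets and from nothing else.

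In HCT116 the column 4 share of the column-4 windows had a median of 55.0%, with 90% of windows between 46.9 and 62.9% and a highest value of 73.8%. RPE1 set 1 had a median of 62.1%, with a range of 48.6 to 72.3% for the same part of the windows and a highest value of 86.5%. RPE1 set 2 had 61.6%, 47.9 to 71.1% and 82.7%. In the other kept windows the medians were 24.4, 21.1 and 19.7% in HCT116, RPE1 set 1 and RPE1 set 2. Each set alone had 29.2% (HCT116), 29.4% (RPE1 set 1) and 28.5% (RPE1 set 2) of kept windows at or above the threshold, and the distribution of each set had a broad upper hump that the threshold split from a tall peak at low shares. The column-4 windows made up most of that hump in all sets.

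**Figure D1:**
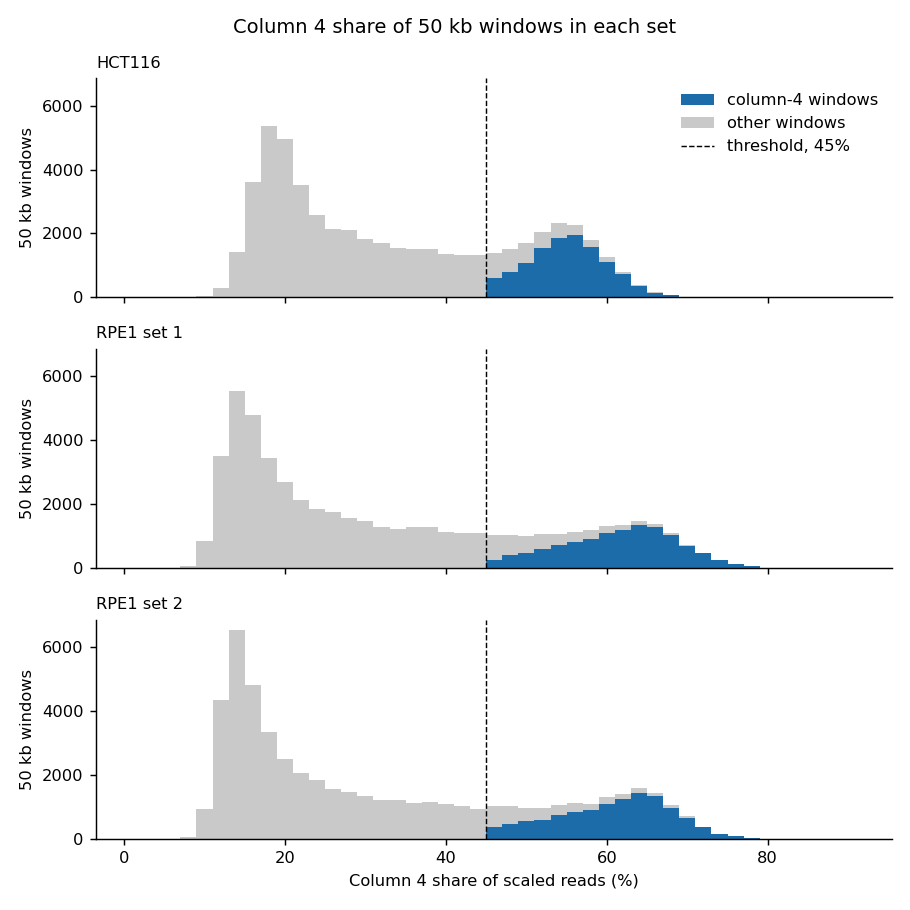
Number of 50 kb windows (vertical axis) by column 4 share of scaled reads in percent (horizontal axis), with column-4 windows in blue, other kept windows stacked above in grey and the threshold dashed. The column-4 windows form most of the upper hump, with medians of 55.0% in HCT116, 62.1% in RPE1 set 1 and 61.6% in RPE1 set 2.

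The column-4 windows differed among themselves by more than counting error. The SD of the share between them was 4.78 percentage points in HCT116, 7.16 in RPE1 set 1 and 7.03 in RPE1 set 2. The counting error of a window's share, as a root mean square, was 2.28, 2.21 and 1.53 points in the same sets. The order of the windows was held in common by the RPE1 sets much more than by the lines. Over the 11825 windows the share correlated at r = 0.87 (Spearman 0.87) between the RPE1 sets, and at r = 0.34 (Spearman 0.34) and 0.37 (0.37) between HCT116 and RPE1 sets 1 and 2. These are descriptions, since the points are neighbouring windows of the same libraries and were cut off at the threshold, which lowers a correlation. In the same libraries all kept windows gave 0.84 and 0.83 for HCT116 against RPE1 sets 1 and 2, and 0.99 between the RPE1 sets.

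The windows with the highest shares, ranked by the lowest of their 3 sets, lay on 7 chromosomes. At the top was chromosome 8 from 145300001 to 145350000 (hg19, as for all positions here). There columns 4, 5 and 6 held 137, 42 and 19 reads in HCT116, 195, 15 and 11 in RPE1 set 1 and 267, 32 and 40 in RPE1 set 2. After scaling, column 4 had 71.5% in HCT116 (95% interval 65.0 to 77.2%), 81.5% in RPE1 set 1 (74.6 to 86.9%) and 71.7% in RPE1 set 2 (66.1 to 76.6%). These intervals are Wilson intervals carried to the scaled share and cover counting error only. The summed reads of this window, scaled as above, were few, at 0.449, 0.338 and 0.329 times the median kept window of HCT116, RPE1 set 1 and RPE1 set 2.

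The next window, on chromosome 4 from 2250001 to 2300000, had the most even shares of the 10 highest. Its column 4 share was 71.5% in HCT116, 72.3% in RPE1 set 1 and 72.6% in RPE1 set 2, from 334, 601 and 1009 reads. It lay in a run of 41 adjacent column-4 windows and had 0.757, 0.973 and 0.975 times the median reads in HCT116, RPE1 set 1 and RPE1 set 2. Chromosome 22 held the window from 50350001 to 50400000, at 73.8, 79.3 and 71.1% in the same order of sets, and that from 30100001 to 30150000, at 70.4, 76.9 and 74.3%. The first of these had few reads, with 92 in HCT116, 178 in RPE1 set 1 and 239 in RPE1 set 2. The second lay in a run of 60 windows and held 350, 615 and 813 reads.

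On chromosome 17 the window from 17000001 to 17050000 had 70.4% in HCT116, 77.9% in RPE1 set 1 and 74.5% in RPE1 set 2. Chromosome 6 gave the window from 31950001 to 32000000, where RPE1 set 1 reached 86.5%, the highest share of any kept window in that set. That value rests on 143 reads, and HCT116 had 42 reads there with a share of 70.3% (55.5 to 81.8%). A better covered window of chromosome 6, from 33650001 to 33700000, had 69.8% in HCT116, 78.3% in RPE1 set 1 and 77.6% in RPE1 set 2. The rest of the 10 were on chromosome 9 from 139100001 to 139150000 and on chromosome 16 from 88500001 to 88550000 and from 85200001 to 85250000. Their HCT116 shares ran from 69.8 to 69.9% and their RPE1 shares from 69.1 to 78.0%. The windows on chromosome 16 were the only ones of the 10 with more than the median reads in HCT116, at 1.15 and 1.21 times, where RPE1 had 0.842 to 0.939 times.

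The threshold cut through a continuous range. There were 558 windows whose lowest share lay from 0.45 to under 0.46, and 528 from 0.44 to under 0.45. Just inside was chromosome 17 from 30850001 to 30900000, with 48.5% in HCT116, 45% in RPE1 set 1 and 50.2% in RPE1 set 2, at the end of a run of 89 windows. Just outside was chromosome 12 from 47350001 to 47400000, where HCT116 fell short of the threshold by less than rounding shows, with 51.9% in RPE1 set 1 and 53.7% in RPE1 set 2. Of the other 4 nearest outside, HCT116 had the lowest share on chromosomes 1, 3 and 11 and RPE1 set 1 on chromosome 2. The other 4 windows nearest to the threshold inside it lay on chromosomes 2, 11, 12 and 15, and in all of these an RPE1 set had the lowest share. In 9476 column-4 windows, or 80.1%, the lower 95% bound of counting error was itself at or above the threshold in every set. HCT116 had 1593 windows whose bound fell below it, RPE1 set 1 had 819 and RPE1 set 2 had 613.

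The rule bounds the column 4 share and does not set how the rest is divided between columns 5 and 6, and that division differed between sets. In HCT116 column 5 took a median of 27.6% and column 6 took 16.9% of the scaled reads of a column-4 window. RPE1 set 1 had 34.0% and 3.86%, and RPE1 set 2 had 20.5% and 17.5%. Column 5 held more than column 6 in 98.2% of column-4 windows in HCT116, in all 11825 in RPE1 set 1 and in 62.9% in RPE1 set 2. In the other kept windows this was so in 56.9, 48.0 and 53.7%. The HCT116 medians of columns 5 and 6 lay between those of the RPE1 sets. The RPE1 sets lay so far apart here that a difference between the lines in this division could not be judged.

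As a part of columns 5 and 6 together, column 6 had a median of 38.1% in the column-4 windows of HCT116, against 42.8% in its other windows. It had 10.3% against 52.7% in RPE1 set 1, and 45.8% against 47.4% in RPE1 set 2. All sets had the lower value in the column-4 windows, by a wide margin in RPE1 set 1 alone. With columns scaled by their median window, the column 6 part of the column-4 windows was 46.3% in HCT116, 16.4% in RPE1 set 1 and 47.6% in RPE1 set 2. RPE1 set 1 was thus still the lowest. The other windows were not read with that scaling, so whether the column-4 windows kept the lower value in all sets was not checked. Seen from the libraries, the column-4 windows held 36.2% of the autosomal column 4 reads in HCT116, 44.2% in RPE1 set 1 and 43.8% in RPE1 set 2, while they were 21.9% of the windows. They held 18.6, 24.4 and 15.8% of the column 5 reads and 11.2, 2.93 and 12.8% of the column 6 reads of HCT116, RPE1 set 1 and RPE1 set 2. In RPE1 set 1, 316 column-4 windows had more scaled reads in column 5 than in column 4, and no column-4 window did in the other sets.

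**Figure D2:**
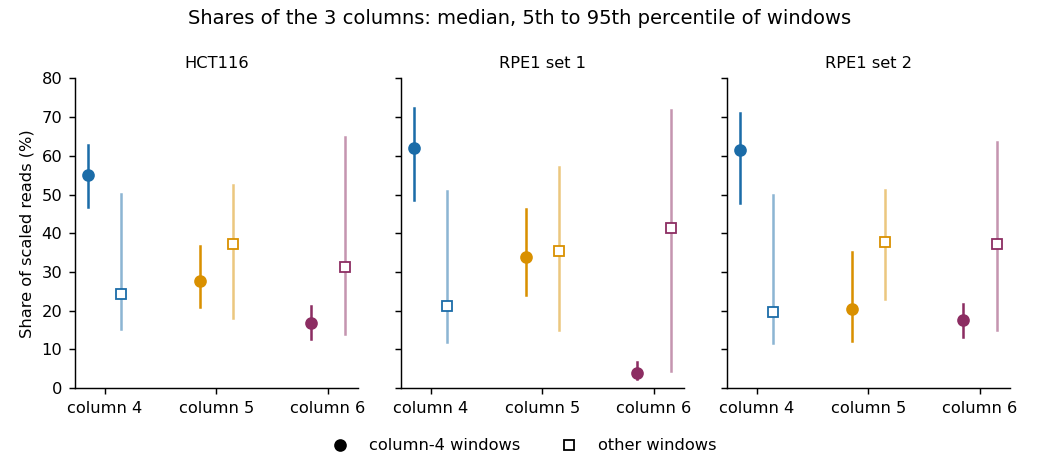
Share of scaled reads in percent (vertical axis) in columns 4, 5 and 6 for the column-4 windows (filled circles) and the other kept windows (open squares), as the median with a line from the 5th to the 95th percentile of windows. Column 6 has a median of 3.86% in the column-4 windows of RPE1 set 1, against 16.9% in HCT116 and 17.5% in RPE1 set 2.

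Within the column-4 windows, a higher column 4 share went mostly with a lower column 5 share. The Spearman correlation of the shares of columns 4 and 5 over windows was -0.85 in HCT116, -0.98 in RPE1 set 1 and -0.93 in RPE1 set 2, and that of columns 4 and 6 was -0.26, -0.31 and -0.07. Shares of a window add up to the whole and column 4 chose the windows, which pushes such values below 0. In RPE1 set 1 the share of column 6 had an SD of 1.49 points, against 7.16 for column 4. The value of -0.98 was thus nearly fixed in advance. Across sets, too, column 5 changed more than column 6. The windows were put in 4 groups of nearly equal number by their column 4 share in RPE1 set 1 and read in the other sets. From the lowest to the highest group, column 5 had medians of 30.4, 28.4, 27.3 and 25.3% in HCT116, while column 6 had 16.3, 16.8, 17.1 and 17.2%. In RPE1 set 2 column 5 had 31.3, 23.2, 17.7 and 14.3%, and column 6 had 16.8, 17.4, 18.1 and 17.6%. A higher share in RPE1 set 1 went with a higher column 4 share in HCT116 too, with medians of 52.8, 54.2, 55.3 and 57.2%. Grouped by HCT116 share instead, column 6 was lower in the highest group than in the lowest. It had 3.57 against 4.18% in RPE1 set 1 and 16.1 against 17.8% in RPE1 set 2. Column 5 had 31.7 against 37.4% and 18.3 against 25% in the same sets.

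The column-4 windows were spread very unevenly over the autosomes. Chromosomes 17, 22 and 19, known as gene-rich chromosomes, had the largest parts, with 57.7, 54.1 and 51.1% of their kept windows. Chromosomes 13, 4 and 18, known as gene-poor, had the smallest, with 6.94, 7.66 and 9.15%. Chromosomes 17, 19 and 22 together held 15.7% of the column-4 windows and 6.28% of the kept windows, and chromosomes 4, 13 and 18 held 4.72% and 13.3%. Chromosome 1 had the most in number, 1410, or 31.1% of its windows. The files carry no gene annotation and none of hg19 was used here, so the genes inside the windows were not analysed.

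Each set on its own had chromosomes 17, 19 and 22 highest and 4, 13 and 18 lowest, with chromosome 22 just above 17 in RPE1. Chromosome 17 had 69.3% of its windows at or above the threshold in HCT116, 62.3% in RPE1 set 1 and 59.7% in RPE1 set 2. Chromosome 13 had 12.4, 13.6 and 12.7%. On 11 autosomes HCT116 lay outside both RPE1 sets by more than the RPE1 sets differed, a criterion set after the values were seen. It was higher on chromosomes 12, 14, 17, 19, 20 and 22 and lower on 2, 3, 4, 5 and 8. The widest gap was on chromosome 19, with 64% in HCT116 against 56.9% in RPE1 set 1 and 53.3% in RPE1 set 2. Chromosomes 12 and 14 had nearly equal RPE1 sets, with 35.4% in HCT116 on chromosome 12 against 30.5 and 30.2%, and 35.1% in HCT116 on chromosome 14 against 30.9 and 30.2%. Chromosomes 2, 3 and 5 ran the other way, with 26.8, 23.9 and 19% in HCT116 against 29.4, 25.9 and 21.4% in RPE1 set 1 and 29.1, 25.5 and 21.2% in RPE1 set 2.

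**Figure D3:**
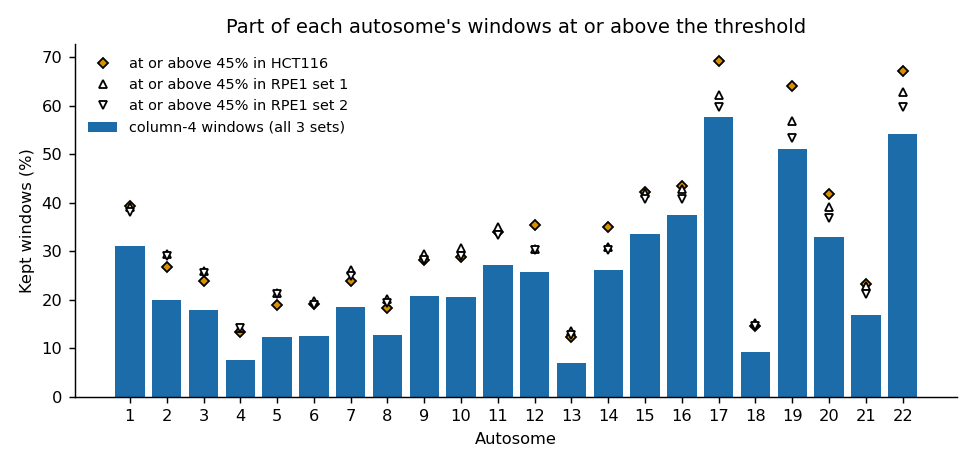
Percent of the kept windows of each autosome (vertical axis) that are column-4 windows (bars) and that reach 45% in HCT116 (filled diamonds), RPE1 set 1 (upward triangles) and RPE1 set 2 (downward triangles). Chromosomes 17, 22 and 19 stand highest, at 57.7, 54.1 and 51.1%, and chromosome 13 lowest, at 6.94%.

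Pooled over the autosomes, the ends of the chromosomes were rich in column-4 windows. Of 1525 kept windows in the outermost 2 Mb, 669 were column-4 windows, or 43.9%, against 21.3% elsewhere. Long stretches in between held none. The longest of these was on chromosome 13, from 53100001 to 97750000, where 891 kept windows had a median column 4 share of 19.3% in HCT116, 14.9% in RPE1 set 1 and 14.7% in RPE1 set 2. Chromosome 3 had a stretch from 66200001 to 98200000 with 580 kept windows and medians of 19.2, 15.2 and 14.5%. On chromosome 2, from 136650001 to 159700000, the medians over 460 kept windows were 20.9, 17.8 and 17.6%.

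Column-4 windows lay side by side in 1115 runs. The median run was 250 kb and the mean was 530.3 kb. The 375 runs of at least 500 kb held 80.2% of the windows, the 184 of at least 1 Mb held 58.2%, and the 64 of at least 2 Mb held 30.9%. At the other end, 286 windows stood alone and were 2.42% of the windows. Share went with run length in every set. Windows that stood alone had median shares of 47.6% in HCT116, 52.4% in RPE1 set 1 and 51.5% in RPE1 set 2, and those in runs of at least 20 windows had 56.5, 64.2 and 63.6%. Runs end where a share crosses the threshold, so length and share are not independent.

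The longest run was on chromosome 15, from 39950001 to 45100000, with 103 windows and 5.15 Mb. The mean column 4 share of its windows was 56.8% in HCT116 (50424 reads), 63.3% in RPE1 set 1 (69428 reads) and 62.8% in RPE1 set 2 (121171 reads). No window of it fell below 45.3% in any set. Chromosome 19 had the next, which ran from 300001 to 5400000 over 102 windows and had means of 54.8% in HCT116, 67.6% in RPE1 set 1 and 64.2% in RPE1 set 2. HCT116 was 11.1 points below the RPE1 mean of 65.9% ± 2.39 (SD, n = 2) there, the widest gap of the 8 longest runs. Reads were also plentiful, at 1.21, 1.38 and 1.39 times the median kept window in HCT116, RPE1 set 1 and RPE1 set 2.

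Chromosome 17 held the third and the fourth longest runs, from 26450001 to 30900000 and from 39550001 to 43800000. Their column 4 means were 55.5 and 57.0% in HCT116, 62.2 and 66.3% in RPE1 set 1, and 61.3 and 64.7% in RPE1 set 2. The run on chromosome 11 from 63250001 to 67450000 had the highest RPE1 mean of the 8, 67.0% ± 1.10 (SD, n = 2), against 56.9% in HCT116. Chromosome 7 from 72200001 to 76300000 had 55.2% in HCT116 and 63.4% ± 2.49 in RPE1. Its median window had more reads than that of any other of the 8. The level was 1.32 times the median kept window in HCT116 and 1.45 and 1.48 times in RPE1. The runs on chromosome 3 from 46900001 to 50750000 and on chromosome 6 from 34050001 to 37900000 had 77 windows each. That on chromosome 6 had the highest HCT116 mean of the 8, 57.8%, and the narrowest gap to RPE1, -5.12 points. In all 8 runs HCT116 lay below both RPE1 sets, and column 6 took 3.79 to 4.05% in RPE1 set 1 against 16.8 to 19.1% in HCT116 and 17.2 to 20.2% in RPE1 set 2.

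Outside the runs column 4 gave way to column 5, next to the edge or farther out depending on the set. This was read at 377 edges where a run of at least 10 windows was followed by 10 kept windows with no column-4 window. In the last window inside the edge, column 4 had a median of 52.6% in HCT116, 51.9% in RPE1 set 1 and 50.5% in RPE1 set 2. In the window from 50 to 100 kb outside, it had 46.6% in HCT116, 39.0% in RPE1 set 1 and 36.5% in RPE1 set 2, and column 5 had 36.1, 51.0 and 43.9%. Column 5 was ahead of column 4 from the window next to the edge in RPE1 set 1, from the one after it in RPE1 set 2, and from 200 to 250 kb outside in HCT116. At 450 to 500 kb outside, the HCT116 medians were 45.6% for column 5 and 19.6% for column 6. RPE1 set 2 had 39.1% for column 5 and 34.5% for column 6, so column 5 still led there too. For RPE1 set 1 the columns were nearly level, with 36.9% for column 5 and 37.3% for column 6.

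Edges of runs shared by all sets fall where the lowest set crosses the threshold. In the first window outside, RPE1 set 2 was below it at 73.2% of the 377 edges, RPE1 set 1 at 57.6% and HCT116 at 32.1%. HCT116 was thus the set that least often placed the edge. With runs and edges taken in each set alone, column 4 at 200 to 250 kb outside had a median of 31.9% in HCT116 (380 edges), 24.4% in RPE1 set 1 (497 edges) and 23.2% in RPE1 set 2 (520 edges). As a percentile of all kept windows of the set, this was 53.2 in HCT116, 45.1 in RPE1 set 1 and 46.0 in RPE1 set 2. At 450 to 500 kb the percentiles were 40 in HCT116, 38.8 in RPE1 set 1 and 39 in RPE1 set 2, close to each other. Column 6 at 200 to 250 kb had a median of 18.9% in HCT116, 31.5% in RPE1 set 1 and 31.2% in RPE1 set 2. Here the gap between the lines exceeded that between the RPE1 sets. It was not put as percentiles. Column 6 was also lowest in HCT116 over the kept windows that were not column-4 windows, with medians of 31.3, 41.4 and 37.2% in the same order. The gap is thus not shown to be particular to the edges.

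**Figure D4:**
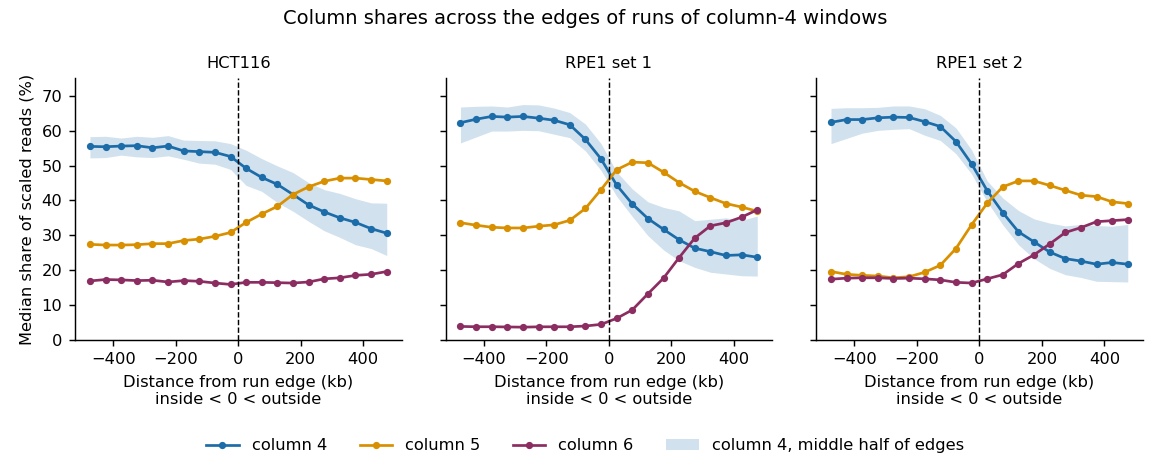
Median share of scaled reads in percent (vertical axis) of columns 4, 5 and 6 by distance from the edge of a run in kb (horizontal axis, inside below 0), over 377 edges, with the range from the 25th to the 75th percentile of edges shaded for column 4. Column 5 passes column 4 within 100 kb of the edge in both RPE1 sets and between 200 and 250 kb outside it in HCT116.

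How far windows chosen in one line also stood out in the other was read on values the choice did not use. Both RPE1 sets were at or above the threshold in 14753 windows, or 27.4% of the kept windows. HCT116, which had no part in that choice, was at or above it in 11825 of these, or 80.2%, against 29.2% of all kept windows. The median HCT116 share in them was 53.5%, against 30% over all kept windows. Within RPE1, windows chosen on set 1 were at or above it in set 2 in 93.0% of cases, and those chosen on set 2 in set 1 in 96.1%. Of the 15753 windows at or above the threshold in HCT116, both RPE1 sets were in 75.1%. Windows chosen on RPE1 set 1 alone were at or above the threshold in HCT116 in 77.9% of cases, and those chosen on RPE1 set 2 alone in 78.7%. At this fixed threshold the overlap of the lines was thus smaller than that of the RPE1 sets.

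HCT116 had the lowest column 4 share of the sets in most column-4 windows. It lay below both RPE1 sets in 8938, or 75.6%, and above both in 1729, or 14.6%. Over all kept windows it lay below both in 35.5% and above both in 54.5%. The median difference of HCT116 from the RPE1 mean was -6.75 points in the column-4 windows and 2.24 points over all kept windows. The RPE1 sets differed in the column-4 windows by a median of 0.68 points, set 1 above set 2, with an SD of 3.59 points. The rule used these shares, so the counts are a description.

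The size of this gap rested on the scale of the shares. Over all kept windows the share had an SD of 15.1 points in HCT116 and of 18.9 and 19 points in RPE1 sets 1 and 2, so HCT116 shares spanned a narrower range. Put as percentiles of the kept windows of each set, HCT116 lay below both RPE1 sets in 49.1% of column-4 windows and above both in 36.6%. Over all kept windows these parts were 43.2 and 43.5%. The median difference was -1.15 percentile points in the column-4 windows and 0.103 over all kept windows. With columns scaled by their median window, the gap in share was wider, with a median of -11.1 points. By more than 10 points of share, HCT116 was below both RPE1 sets in 2616 column-4 windows, or 22.1%, where 11.6% of all kept windows were. It was above both by that much in 120, or 1.01%, where 12.1% of all were. Chromosome 19 had the widest median gap of the autosomes, -10.1 points, and chromosome 2 the narrowest, -5.21.

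**Figure D5:**
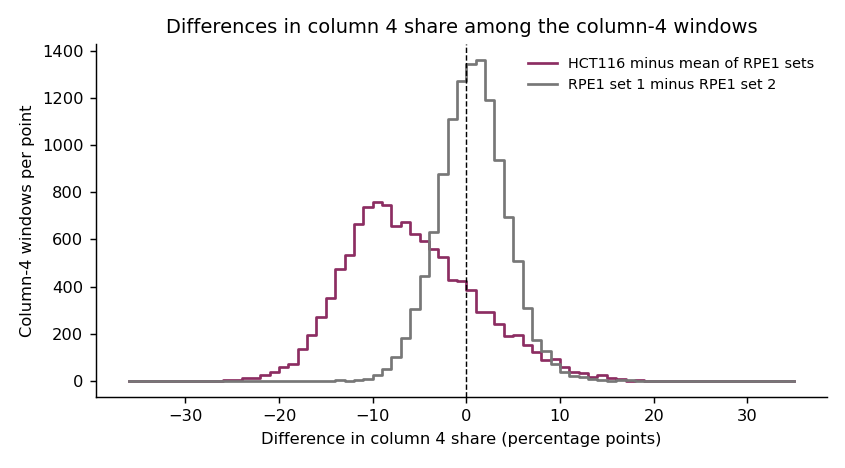
Number of column-4 windows (vertical axis) by difference in column 4 share in percentage points (horizontal axis), for HCT116 minus the mean of the RPE1 sets and for RPE1 set 1 minus RPE1 set 2. The first has a median of -6.75 points and the second of 0.68 points.

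The column-4 windows with the largest differences were the following. HCT116 was highest against RPE1 on chromosome 6 from 32950001 to 33000000, with 68.7% from 146 reads, against 48.2% ± 3.45 (SD, n = 2) in RPE1, from 113 and 250 reads. Next came chromosome 17 from 43750001 to 43800000, the last window of the second long run of that chromosome, with 66.8% in HCT116 and 47.9% ± 2.53 in RPE1. Its reads were at 0.94 times the median window in HCT116 and 0.41 and 0.581 times in RPE1 sets 1 and 2. On chromosome 8 from 95150001 to 95200000 HCT116 had 67.5%, against 49.0% ± 4.79 in RPE1. On chromosome 1 from 201050001 to 201100000 it had 64.6% against 46.5% ± 0.212, and on chromosome 9 from 133300001 to 133350000 it had 65.2% against 47.1% ± 0.201. In the last 2 the RPE1 sets were closest together, and column 5 held 24.7 and 21.8% in HCT116 against 38.4 to 50.6% in RPE1.

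In the other direction, chromosome 13 from 114700001 to 114750000 had the largest difference, at 47.6% in HCT116 (37.0 to 58.5%) against 81.9% ± 2.36 (SD, n = 2) in RPE1. Only 79 reads in HCT116 and 117 and 167 in RPE1 lay there. A window that stood alone, chromosome 2 from 217200001 to 217250000, followed with 46.4% against 72.4% ± 1.82 from 431, 610 and 891 reads in HCT116, RPE1 set 1 and RPE1 set 2. Chromosome 10 from 80700001 to 80750000 had 46.1% against 72.0% ± 1.78. Chromosome 20 from 47400001 to 47450000 had 46.3% against 71.7% ± 2.16, inside a run of 46 windows. Chromosome 1 from 183500001 to 183550000 had 45.1% against 70.4% ± 3.39. In these last 4 HCT116 was close to the threshold, with 34.6 to 38.1% of its scaled reads in column 5. RPE1 was above the median of the column-4 windows there.

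Summed over columns, the column-4 windows had somewhat more reads than others. The median window had 1.04 times the reads of the median other window in HCT116, 1.11 times in RPE1 set 1 and 1.17 times in RPE1 set 2. The side of 1 on which HCT116 fell depended on the scaling. With columns scaled by their median window, the ratios were 0.989, 1.00 and 1.24 in the same sets, so HCT116 then had fewer reads in the column-4 windows. Bins without a read were rare in both classes, with 0.547% of bins in column-4 windows and 0.572% in others in HCT116, 0.361 and 0.521% in RPE1 set 1, and 0.294 and 0.422% in RPE1 set 2. The column-4 windows with the fewest reads had 39 in HCT116, 42 in RPE1 set 1 and 95 in RPE1 set 2, all in the window of chromosome 17 from 350001 to 400000. Copy number was not measured here, and its part in the summed reads was not tested.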

How the data were processed

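Counts are whole numbers of reads per bin as deposited, in 3137207 bins mostly of 1 kb, with 3 columns for each set and column totals that differ, so that no scaling by the authors shows. The submitters' processing notes name hg19 as the build and list bedtools 2.25, SAMtools 1.2 and Bowtie2 without saying what each did. The name given to each table includes the word nodup. Mapping settings are not given in the sources used here.

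Bins of chromosomes 1 to 22 were summed to 50 kb windows from the first base, and 3735 windows with fewer than 30 reads in any set were left out. Each column was scaled to the mean column total of its set over the kept windows. Share is a scaled column over the sum of 3. Wilson 95% bounds of the raw share were carried to the scaled share through the odds, with the division between columns 5 and 6 held fixed. Intervals cover counting error only, and reads are not independent molecules. Level is the summed scaled reads of a window over the median kept window of its set. Python with numpy 2.4.6, pandas 2.3.3, scipy 1.17.1 and matplotlib 3.10.9 was used, and the steps were tested on simulated data.

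The windows, thresholds and regions to name were chosen with earlier results of these data known. Regions named are the 8 longest runs, the 10 windows with the highest lowest share, the 5 with the largest difference between the lines in each direction, and those at the threshold. No hg19 genome or annotation was used here, so genes, GC content and sequence were not analysed, and the gene lists set down for that case were not used.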

Additional observations from a re-analysis of the deposited data

Results flagged for a closer look

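Chromosome X lies outside the rule, which takes the autosomes, and was looked at because no comparison used it. With the autosomal scaling, 3037 windows of X had at least 30 reads in each set. In 25 of these, or 0.823%, the column 4 share was at or above 0.45 in all 3 sets, a lower part than on any autosome. HCT116 reached it in 409 windows, or 13.5%, against 110 (3.62%) in RPE1 set 1 and 35 (1.15%) in RPE1 set 2. The median share of X windows was 25.4% in HCT116, 17.2% in RPE1 set 1 and 15.9% in RPE1 set 2. The RPE1 sets differed in the count of windows by more than 3 times, and no test was made.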

How the results depend on the processing

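Of 107 alternative values, 94 stayed within the spread between the RPE1 sets or, for counts and parts of windows, within 1.5 times the reported value. For the division between columns 5 and 6 that spread was 25.1 points, so this says little there. Windows of 20 kb gave 28624 windows (572.5 Mb) in 2976 runs with a median of 40 kb. Windows of 100 kb gave 6021 (602.1 Mb) in 787 runs with a median of 500 kb. A smaller size gives more windows by construction. The number and length of runs also depended on window size, and the cause of that was not tested. Chromosome 13 had 10.8% column-4 windows at a threshold of 40% and 3.6% at 50%, and the read level in RPE1 set 1 was 1.07 at 40%; fewer windows pass a higher threshold by construction, and the cause of the level change was not tested. Scaling by the median window gave a difference between the lines of -11.1 points and read levels of 0.989, 1.00 and 1.24 in HCT116, RPE1 set 1 and RPE1 set 2; the cause was not tested. Percentile ranks, added after the data were examined along with the counting bound and the edges in single sets, gave a difference of -1.15 percentile points. The number of column-4 windows, 11825 as reported, was 14481 at a threshold of 40% and 8964 at 50%. It was 13373 with columns scaled by their median window. These lay within 1.5 times the reported number, which is a wide limit. Thinning every library to the smallest left 11691 windows. Gene and GC content were not run, since no hg19 annotation was used, and a set that was left out has no values of its own. No paired analysis was possible because no result came from a test. Counting error per column-4 window was 2.28 points in HCT116, 2.21 in RPE1 set 1 and 1.53 in RPE1 set 2.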

Other observations

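Some windows missed the rule in a single set. HCT116 alone was below the threshold in 2928 windows, or 5.43% of kept windows. Its median column 4 share there was 37.6%, with 90% of windows between 21.2 and 44.5%. Of these, 21.8% lay beside a column-4 window. RPE1 set 1 alone was below it in 255 windows (0.473%), with a median of 43.5%, and RPE1 set 2 alone in 542 (1.01%), with a median of 42.6%. Of these, 77.3 and 66.8% lay beside a column-4 window. These values cannot be compared between the lines: a window missed by 1 RPE1 set alone had to pass in the other set of the same line, and the RPE1 sets correlate at r = 0.99 over all kept windows, while HCT116 has no such partner. HCT116 alone reached the threshold in 3131 windows, or 5.81% of kept windows. RPE1 set 1 alone did in 573 (1.06%) and RPE1 set 2 alone in 337 (0.625%). The same limit holds for these counts, since an RPE1 set that passed alone had to fail in the other set of its line.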
